A study of Homo sapiens with 6 samples.

Results

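The secreted acute-phase and chitinase-like genes described here are 9 of the 60671 genes in the deposited expression table. They encode secreted proteins that reactive glia release in inflammation: the chitinase-like proteins CHI3L1 and CHI3L2, the acute-phase proteins SERPINA3, LCN2 and SAA1, the complement proteins C3 and CFB, and PTX3 and TNFAIP6, which bind the hyaluronan matrix. The genes were picked by name with the difference between rutaecarpine and control already known, so they were chosen by the same contrast that is described here. Their levels and fold changes are therefore given as a description, with no p, and no support is read from how many of them differed.

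The libraries came from U87 cells, an established human glioblastoma line, so the results concern a single line. Cells of the control group received 0.1% DMSO for 48 h, and cells of the rutaecarpine group received 100 μM rutaecarpine, an alkaloid of Evodia fruit that activates the aryl hydrocarbon receptor (AhR), for 48 h in the same concentration of DMSO. Dosing was in medium without serum for both groups, and no genotype differed between them. Each group had 3 libraries, and nothing in the labels says that these came from separate cultures, so the spread between them may be technical.

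Acute-phase proteins are made mainly by the liver in systemic inflammation, but astrocytes and glioma cells produce several of them locally. The usual inducers are IL-1, IL-6 family cytokines and TNF, which act through NF-kappaB, C/EBP and STAT3 on the promoters. CHI3L1, also called YKL-40, and CHI3L2, also called YKL-39, resemble chitinases but do not cleave chitin, and CHI3L1 is widely used as a marker of the mesenchymal form of glioblastoma. C3 is the component on which all complement pathways converge, and CFB is the protease subunit of the alternative pathway that binds to activated C3.

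Levels are in TPM (a transcript's share of the library, scaled to a fixed total), which correct for gene length, so genes can be compared with each other. The depth of the libraries is unknown because TPM keep no read numbers, and no counting error can be given. Fold changes are differences in log2(TPM + 1), rutaecarpine minus control, with the standard error of a limma fit to the 14377 genes that reached a TPM of 1 in 3 or more libraries. A gene was counted as changed where its adjusted p did not exceed 0.05 and its log2 fold change passed 1 in either direction. Of the genes tested, 3.51% met these cutoffs, 2.01% higher and 1.50% lower after rutaecarpine. This split was 289 to 216 genes, and 251 to 295 when each library was centred on its median. Control replicate 3 stood apart, with a median log2(TPM + 1) of 3.56 against 3.81 to 4.00 in the other 5 libraries, and values without it are given where they matter. The glioma markers VIM and CD44 were high, at 4430 to 7968 and 415 to 837 TPM. CDKN2A, CDKN2B and MTAP, which U87 cells have lost, were at 0.06 TPM or lower, while the glial markers S100B and SOX2 were at 0.25 TPM or lower and GFAP was at 3.48 to 5.41 TPM. Of the other markers, NES was at 12.29 to 21.02 TPM and lower in every rutaecarpine library (log2 fold change -0.53). OLIG2 was at 1.48 to 4.11 TPM and higher in every rutaecarpine library (0.83). Both stayed under the fold cutoff.

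Promoter sequence was available for 7 of the 9 genes in the RefSeq table (GRCh38.p14), as 8 windows from 250 bases before to 50 bases after a start site, with CHI3L2 holding a pair of them. Stretches of 30 bases are shown because each of these 5 matches a motif of a factor downstream of IL-1 or IL-6. The 5 include genes that stood lower after rutaecarpine and genes that did not. They are on the plus strand, 5′ to 3′, and the capitals mark the match.
CHI3L2, NF-kappaB consensus, chr1:111227614-111227643: agtctgccagGGGAAGTCCCtggacttctt
PTX3, NF-kappaB consensus, chr3:157436744-157436773: ccaaattcaGGGGAACTCCCgttaccgcag
LCN2, NF-kappaB consensus, chr9:128149268-128149297: cagcactccgGGAATGTCCCtcactctccc
CFB, STAT motif, chr6:31945993-31946022: cgcttggatgTTCCGGGAAagtgatgtggg
TNFAIP6, AP-1 motif, chr2:151357452-151357481: gccaatgcaaaTGAGTCAgaggatttgctt
The matches begin 35, 97, 175, 92 and 129 bases before the start site, in the order shown. In the annotation of GENCODE release 29, the stretches of CHI3L2 and CFB also lie in an exon of another transcript of the same gene, and the other stretches lie in no exon. In PTX3 a pair of overlapping matches gives the longer run of capitals.

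Both strands of all 35116 windows were searched. The NF-kappaB consensus was found in 5.91% of them and in 3 of the 7 genes (CHI3L2, PTX3 and LCN2). The AP-1 motif TGANTCA was in 7.71% of windows and in TNFAIP6 and LCN2. The STAT motif TTCNNNGAA was in 7.66% and in CHI3L2 and CFB. The loose C/EBP motif TTNNGNAA was in 36.8% of windows and in 6 of the 7 genes. The core of the dioxin response element, TNGCGTG, to which AhR binds, was in 5.51% of windows and in 0 of the 7. It is rare in such windows, so its absence from so few does not set these genes apart. The study searched longer stretches, upstream of the coding sequence, for its own candidate genes, and sequence outside the windows was not searched here. Of the genes with an NF-kappaB match, CHI3L2 and PTX3 were lower in the comparison that follows. LCN2 was low, at a higher mean with overlapping groups. A match is a description of letters in these windows and not a site of binding.

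In control cells the order of the levels was CHI3L1, C3, CHI3L2, PTX3, CFB, TNFAIP6, SAA1, LCN2 and SERPINA3, and in no neighbouring pair of this order did the 3 control libraries overlap. After rutaecarpine, LCN2 stood above SAA1 by its mean, with overlapping values, and the rest of the order was as in the control group. CHI3L1 was among the most abundant transcripts of these cells, ranked 63 of all genes by mean TPM in the control group and 44 in the rutaecarpine group. SERPINA3 was near 0 in every library.

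**Figure D1:**
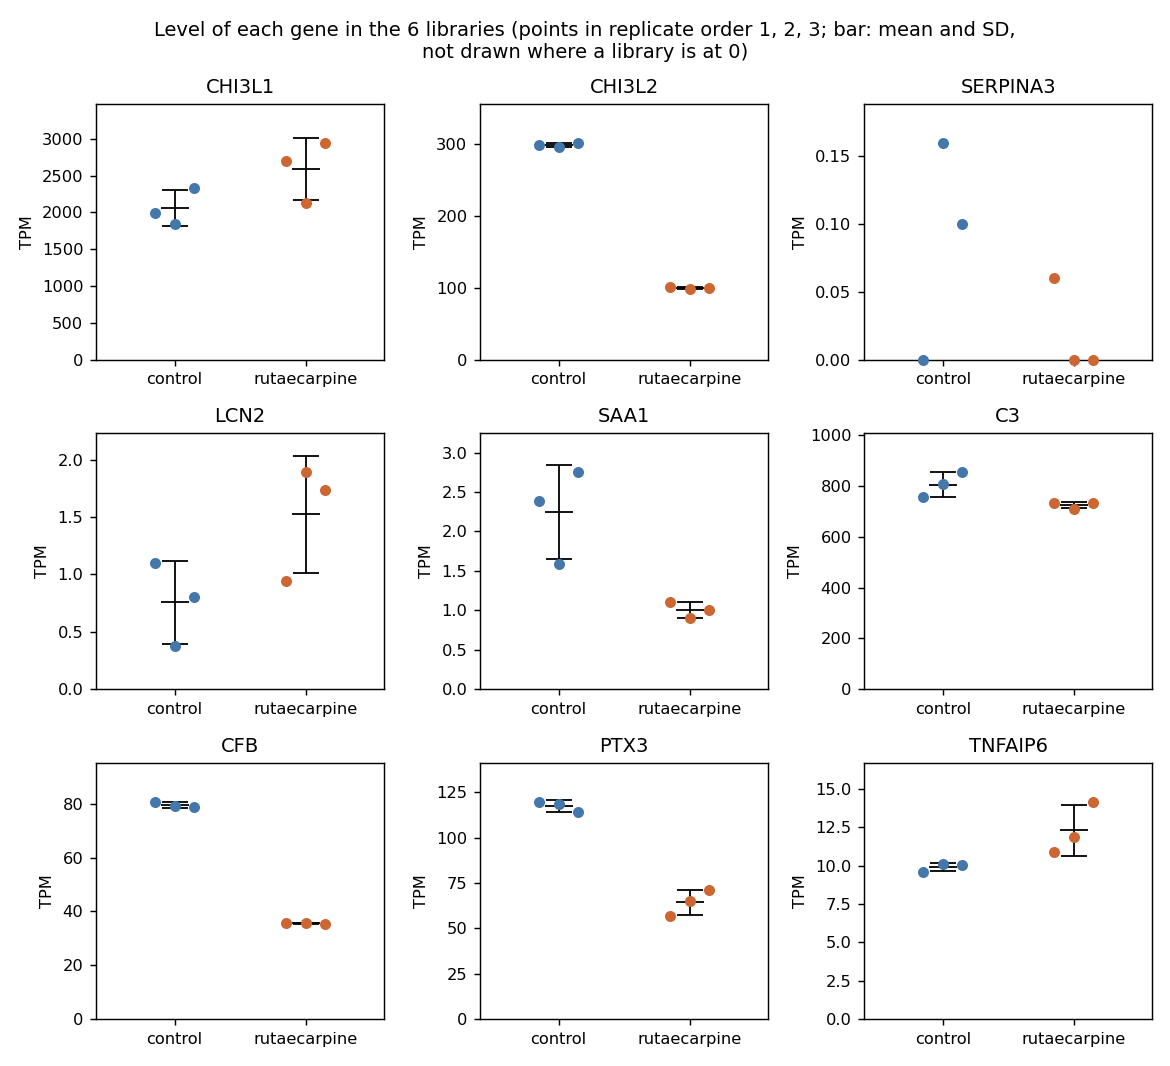
TPM of the 9 genes in each library, one panel per gene with its own axis from 0, with points for the 3 control and 3 rutaecarpine libraries and bars for the mean and SD, which are not drawn for SERPINA3. The groups lie far apart in CHI3L2, CFB and PTX3, with little spread in CHI3L2 and CFB, and overlap in CHI3L1 and LCN2.

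Of the chitinase-like genes, both on chromosome 1, CHI3L2 was lower in every rutaecarpine library and CHI3L1 overlapped between the groups. CHI3L2 (ENSG00000064886, chr1:111200771-111243440, plus strand) had 298.3, 295.9 and 301.7 TPM in the control libraries and 100.8, 98.7 and 99.7 TPM in the rutaecarpine libraries. All rutaecarpine libraries were far below all control libraries, and the spread within each group was about 1% of its mean (coefficients of variation of 0.974% and 1.05%). The mean was 298.6 ± 2.91 (SD, n = 3) against 99.7 ± 1.05 TPM, which is 2.99-fold lower, and the log2 fold change was -1.57 ± 0.07 (SE). CHI3L2 moved from rank 440 to rank 1418 of all genes. It met both cutoffs in the main fit and in all 12 alternatives, with log2 fold changes from -1.67 to -1.57.

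CHI3L1 (ENSG00000133048, chr1:203178931-203186749, minus strand) had 1994, 1849 and 2329 TPM in the control libraries and 2705, 2126 and 2947 TPM after rutaecarpine. The groups overlapped only because rutaecarpine replicate 2 lay below control replicate 3. With either of these libraries left out, all rutaecarpine libraries were higher. The groups also overlapped with the libraries centred. The means were 2057 ± 246.2 and 2593 ± 421.9 TPM (SD, n = 3), a log2 fold change of 0.33 ± 0.14 (SE), and 0.42 without control replicate 3. The ratio of CHI3L1 to CHI3L2 within a library was 6.25 to 7.72 in the control group and 21.5 to 29.6 in the rutaecarpine group, so these ratios did not overlap.

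Of the complement genes, CFB differed strongly and C3 slightly. CFB (ENSG00000243649, chr6:31945650-31952084, plus strand) had 80.8, 79.3 and 78.8 TPM in the control libraries and 35.9, 35.6 and 35.4 TPM in the rutaecarpine libraries. As with CHI3L2, the groups were far apart and the libraries within a group nearly equal. The mean was 79.7 ± 1.03 against 35.6 ± 0.244 TPM (SD, n = 3), 2.24-fold lower, with a log2 fold change of -1.14 ± 0.08 (SE) that ran from -1.23 to -1.13 over the alternatives and met both cutoffs in all 12. The row of CFB carried no gene name in the table and was found by its Ensembl identifier. A readthrough gene that spans CFB (ENSG00000244255) was at 0.21 TPM or lower in every library, so few of the reads were assigned to it.

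C3 (ENSG00000125730, chr19:6677704-6730562, minus strand) had 757.1, 805.2 and 853.1 TPM in the control libraries and 730.6, 710.5 and 731.5 TPM in the rutaecarpine libraries. All rutaecarpine libraries were lower, by a small margin, and the groups overlapped once the libraries were centred on their medians. The mean was 805.1 ± 48.0 against 724.2 ± 11.8 TPM (SD, n = 3), and the log2 fold change was -0.15 ± 0.07 (SE), -0.11 without control replicate 3 and -0.24 with centring. The ratio of C3 to CFB was 10.1 ± 0.726 in the control group and 20.3 ± 0.342 in the rutaecarpine group (SD, n = 3).

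PTX3 and TNFAIP6 act in the same matrix, where TNFAIP6, also called TSG-6, transfers heavy chains to hyaluronan and PTX3, a long pentraxin that also binds microbes and C1q, crosslinks them. PTX3 (ENSG00000163661, chr3:157436789-157443628, plus strand, inside the span of VEPH1) had 119.7, 118.8 and 114.0 TPM in the control libraries and 57.0, 65.2 and 70.9 TPM in the rutaecarpine libraries. The groups were well apart, with more spread after rutaecarpine than before. The mean was 117.5 ± 3.07 against 64.4 ± 7.02 TPM (SD, n = 3), 1.83-fold lower, and the log2 fold change of -0.86 ± 0.10 (SE) stayed under the fold cutoff in every alternative, at -0.96 to -0.78. VEPH1, on the opposite strand around it, had a log2 fold change of 0.19 and an adjusted p of 0.732 by limma with Benjamini-Hochberg adjustment, and the fold change turned to -0.13 without control replicate 3.

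TNFAIP6 (ENSG00000123610, chr2:151357592-151380048, plus strand) had 9.58, 10.1 and 10.0 TPM in the control libraries and 10.9, 11.8 and 14.1 TPM in the rutaecarpine libraries. All rutaecarpine libraries were higher, and the groups overlapped with centring. The means were 9.91 ± 0.284 and 12.3 ± 1.68 TPM (SD, n = 3), and the log2 fold change was 0.28 ± 0.15 (SE), and 0.18 without rutaecarpine replicate 3.

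The 3 acute-phase genes other than complement were low in these cells. SAA1 (serum amyloid A1, ENSG00000173432, chr11:18266174-18269977, plus strand) had 2.39, 1.59 and 2.75 TPM in the control libraries and 1.11, 0.90 and 1.00 TPM in the rutaecarpine libraries. All rutaecarpine libraries were lower. The mean was 2.24 ± 0.594 against 1.00 ± 0.105 TPM (SD, n = 3), 2.24-fold lower, while the log2 fold change was -0.68 ± 0.20 (SE) because the added 1 shrinks the differences of weak genes, and it was -1.06 with a pseudocount of 0.1. SAA2, a near-identical copy 17530 bases away whose reads can be divided with SAA1, was at 1.01 TPM or lower.

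LCN2 (lipocalin-2, which sequesters bacterial siderophores, ENSG00000148346, chr9:128149071-128153455, plus strand) had 1.10, 0.38 and 0.80 TPM in the control libraries and 0.94, 1.89 and 1.74 TPM after rutaecarpine. The groups overlapped, since rutaecarpine replicate 1 lay below control replicate 1. The log2 fold change was 0.52 ± 0.24 (SE), and 0.96 with a pseudocount of 0.1. SERPINA3 (alpha-1-antichymotrypsin, an inhibitor of cathepsin G and chymase, ENSG00000196136, chr14:94612377-94624055, plus strand) was listed at 0, 0.16 and 0.10 TPM in the control libraries and at 0.06, 0 and 0 TPM after rutaecarpine. It did not pass the filter on low values and was not tested.

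Over the set, 8 of the 9 genes passed the filter. Of these, 2 met the cutoffs (CHI3L2 and CFB), where 3.51% of all genes did. The 3 rutaecarpine libraries were all lower than the controls in 5 genes (CHI3L2, SAA1, C3, CFB and PTX3), where 14.0% of all genes were, and all higher in 1 (TNFAIP6), where 19.3% of all genes were. With the libraries centred, the groups did not overlap in 4 of them (CHI3L2, SAA1, CFB and PTX3). The median log2 fold change of the 8 genes was -0.42, beside 0.08 for all genes tested. Since the genes were selected on this contrast, these counts say nothing beyond the values above. In bulk RNA, fewer cells that make a transcript and less of it per cell cannot be told apart.

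**Figure D2:**
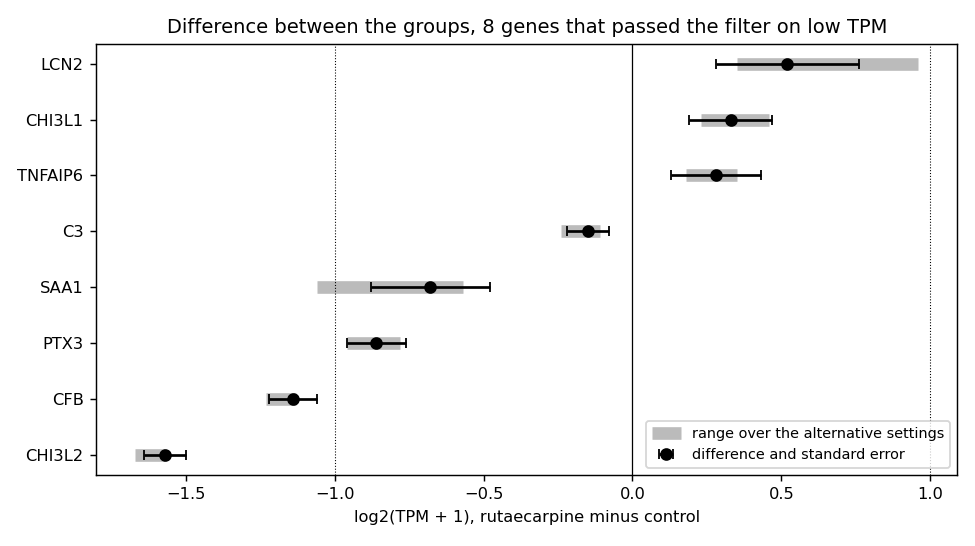
Log2 fold change on the log2(TPM + 1) scale, rutaecarpine minus control, for the 8 genes that passed the filter, with thin bars for the standard error of the limma fit and grey bars for the range over the alternative settings. CHI3L2 at -1.57 and CFB at -1.14 lie beyond the fold cutoff of 1, drawn as a dotted line, PTX3 at -0.86 lies inside it, and the range of SAA1 crosses it at -1.06 with a pseudocount of 0.1.

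CHI3L1 dominated the total. The summed TPM of the 9 genes was 3160 to 3690 in the control libraries and 3051 to 3901 in the rutaecarpine libraries, which overlapped. Without CHI3L1 it was 1269 to 1361 against 924.7 to 954.4, and all rutaecarpine libraries were lower. The share of CHI3L1 in the total was 60.9 ± 2.31% in the control group and 73.2 ± 3.06% in the rutaecarpine group (SD, n = 3).

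Across the 6 libraries the 8 genes did not follow one profile. Pearson's r with their mean standardized profile was 0.87 for SAA1, 0.83 for PTX3, 0.82 for C3, 0.79 for CHI3L2 and 0.78 for CFB, but -0.19 for CHI3L1, -0.36 for LCN2 and -0.37 for TNFAIP6. Each of these 8 genes is itself part of the profile, which raises its r. The 5 tested genes most like this profile were IMP4 (r = 0.996), ENSG00000267317 (0.99), ZDHHC12-DT (0.984), YIPF2 (0.983) and SELENOO (0.98). These r values rest on 6 libraries in 2 groups that share the treatment difference, and they carry no p. None of the 5 genes met the cutoffs, and IMP4, the closest, differed between the groups by a log2 fold change of -0.12.

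The genes next to these 9 on the chromosomes were compared as well. Of 18 neighbouring protein-coding genes outside the set, 10 were tested and 1 changed, where 3.51% of all genes did. This was TNFSF14, a TNF family cytokine 7115 bases from C3, which rose from 0.37, 0.43 and 0.39 TPM in the control libraries to 3.34, 3.11 and 3.30 TPM (log2 fold change 1.61, adjusted p = 0.00149 by limma with Benjamini-Hochberg adjustment). It passed the filter only through the rutaecarpine libraries. NELFE, 2 bases from the end of CFB, had 40.1 to 52.5 TPM in the control group and 48.2 to 51.4 TPM after rutaecarpine, and these overlapped while CFB did not. The chitinase genes nearest to CHI3L1 and CHI3L2, CHIT1 and CHIA, were at 0.55 TPM or lower.

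The other acute-phase genes were nearly silent. Of 19 genes for plasma proteins of this kind, 2 were tested, 6 were at 0 in all libraries (CRP, the classic pentraxin of the acute phase, among them) and none of the 17 not tested went above 1.01 TPM. LBP, the lipopolysaccharide-binding protein, fell from 2.81, 2.58 and 4.13 TPM to 0.68, 0.40 and 0.71 TPM (log2 fold change -1.37, adjusted p = 0.00809 by limma with Benjamini-Hochberg adjustment). It had to pass the filter through the control libraries. SERPINA1 had 3.12 to 5.42 TPM in the control libraries and 1.73 to 2.37 TPM after rutaecarpine, without overlap and without passing the test (adjusted p = 0.106).

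Of 13 myeloid markers, AIF1 and TYROBP were at 0 and PTPRC was at 0.03 TPM or lower in all libraries, and the list summed to 9.16 to 10.4 TPM in the control group and 7.27 to 11.0 TPM after rutaecarpine. CSF1R made up most of this sum, at 5.98 to 8.33 TPM. It alone of the list was tested, and it did not pass (adjusted p = 0.47 by limma with Benjamini-Hochberg adjustment). Of 10 hepatocyte markers, APOA1, APOA2, TTR and FGB were at 0 and ALB was at 0.22 TPM or lower, with sums of 1.86 to 2.49 and 1.11 to 1.55 TPM. SERPINA6 made up most of the hepatocyte sum and was lower in all rutaecarpine libraries, without passing the test (adjusted p = 0.121).

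Among 25 other complement components, 7 were tested and 0 changed by limma, where 3.51% of all genes did. Of the 7, 1 (C1R, lower) had an adjusted p under the threshold, where 9.29% of all genes tested did. C1R, the protease that starts the classical pathway, had 388.6, 384.1 and 360.0 TPM in the control libraries and 248.9, 201.9 and 251.0 TPM after rutaecarpine (log2 fold change -0.69, adjusted p = 0.00771 by limma with Benjamini-Hochberg adjustment). The difference was well beyond the spread but under the fold cutoff. C1S, its partner protease, had a log2 fold change of -0.29 with overlapping groups, and C1RL one of -0.07. C4A and C4B, a pair of near-identical copies, were at 2.5 TPM or lower by group mean, and the C1q genes were at 0. C4A was lower in every rutaecarpine library, with a log2 fold change of -0.30 and an adjusted p of 0.295 by limma.

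Of 19 complement regulators and receptors, 11 were tested and 1 changed, where 3.51% of all genes did. Of the 11, 5 had an adjusted p under the threshold (CFI, CLU and CD59 lower, CD55 and C5AR1 higher), where 9.29% of all genes tested did. CFI, the protease that inactivates C3b, fell from 8.45, 8.47 and 7.12 TPM to 3.12, 1.69 and 3.07 TPM (log2 fold change -1.34, adjusted p = 0.0111 by limma with Benjamini-Hochberg adjustment). The call was lost without control replicate 1, at an adjusted p of 0.0503. CLU, or clusterin, an inhibitor of the terminal complex, had 1299 to 1506 TPM in the control group and 820.1 to 835.9 TPM after rutaecarpine, with a log2 fold change of -0.73. CD55, which dissociates the C3 convertase that CFB forms, had 24.6 to 26.4 TPM in the control group and 42.6 to 44.3 TPM after rutaecarpine, with a log2 fold change of 0.75. C5AR1, the receptor for C5a, had a log2 fold change of 0.95, which passed the fold cutoff without control replicate 3 (1.14). CD59, which blocks the terminal complex, had one of -0.30, and for CD46 the groups overlapped, with a log2 fold change of 0.23 that turned to -0.12 without control replicate 3. The list had a median log2 fold change of -0.08.

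Of 9 genes for chitinases and receptors of chitinase-like proteins, 7 were tested and 0 changed by limma, where 3.51% of all genes did. Of the 7, 1 (LGALS3, lower) had an adjusted p under the threshold, where 9.29% of all genes tested did. All rutaecarpine libraries were lower in 3 of the 7, where 14.0% of all genes stood apart in this direction. LGALS3, or galectin-3, had 429 to 453 TPM in the control group and 347 to 356 TPM after rutaecarpine (log2 fold change -0.32, adjusted p = 0.028 by limma with Benjamini-Hochberg adjustment). IL13RA2, a receptor that binds CHI3L1, had a log2 fold change of -0.59 with groups that did not overlap and an adjusted p of 0.0595. Its partner TMEM219 had one of -0.11 and CHID1 one of -0.37. That of CD44 was 0.25, and it turned to -0.05 without control replicate 3.

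Of 21 other lipocalins, pentraxins and receptors for LCN2 and SAA1, 8 were tested and 1 changed, where 3.51% of all genes did. Of the 8, 2 had an adjusted p under the threshold (PTGDS and FPR1, both lower), where 9.29% of all genes tested did. PTGDS, a lipocalin that makes prostaglandin D2, fell from 28.1, 30.9 and 32.5 TPM to 12.2, 12.7 and 11.5 TPM (log2 fold change -1.26, adjusted p = 0.00137 by limma with Benjamini-Hochberg adjustment), and it met the cutoffs in all 12 alternatives. FPR1, a formyl peptide receptor, had 38.3 to 53.6 TPM in the control group and 20.4 to 26.3 TPM after rutaecarpine, at a log2 fold change of -0.91. NPTXR and SCARB1 had log2 fold changes of -0.14 and 0.25, and their groups overlapped. Of 13 genes of the SERPINA cluster and protease partners of SERPINA3 and LCN2, 3 were tested and 1 changed, where 3.51% of all genes did. This was SERPINA9, which rose from 0.06, 0.07 and 0.05 TPM to 1.25, 1.75 and 1.35 TPM (adjusted p = 0.00593 by limma with Benjamini-Hochberg adjustment). It passed the filter only through the rutaecarpine libraries. CTSG and CMA1, the proteases that SERPINA3 inhibits, were at 0.

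Among 21 hyaluronan matrix genes, partners of TNFAIP6 and PTX3, 10 were tested and 1 changed, where 3.51% of all genes did. Of the 10, 3 had an adjusted p under the threshold (HAS2 and CEMIP2 higher, HAPLN3 lower), where 9.29% of all genes tested did. The groups did not overlap in 3 higher and 5 lower genes, where 19.3% and 14.0% of all genes stood apart in these directions. HAS2, a hyaluronan synthase, rose from 4.47, 5.19 and 2.25 TPM to 14.3, 14.5 and 12.6 TPM (log2 fold change 1.62, adjusted p = 0.0099 by limma with Benjamini-Hochberg adjustment). The call was lost without rutaecarpine replicate 1 or 2, at adjusted p values of 0.056 and 0.0555. HAS1, the more abundant synthase, had 79.3 to 101.1 TPM in the control group and 63.5 to 71.5 TPM after rutaecarpine, lower in all libraries with an adjusted p of 0.0693. VCAN, or versican, had a log2 fold change of 1.03 and an adjusted p of 0.0864, and the fold change was 0.67 without control replicate 3. HYAL2 had one of -0.24 with an adjusted p of 0.236, and the heavy-chain genes ITIH1, ITIH2 and ITIH3 were at 0.93 TPM or lower.

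**Figure D3:**
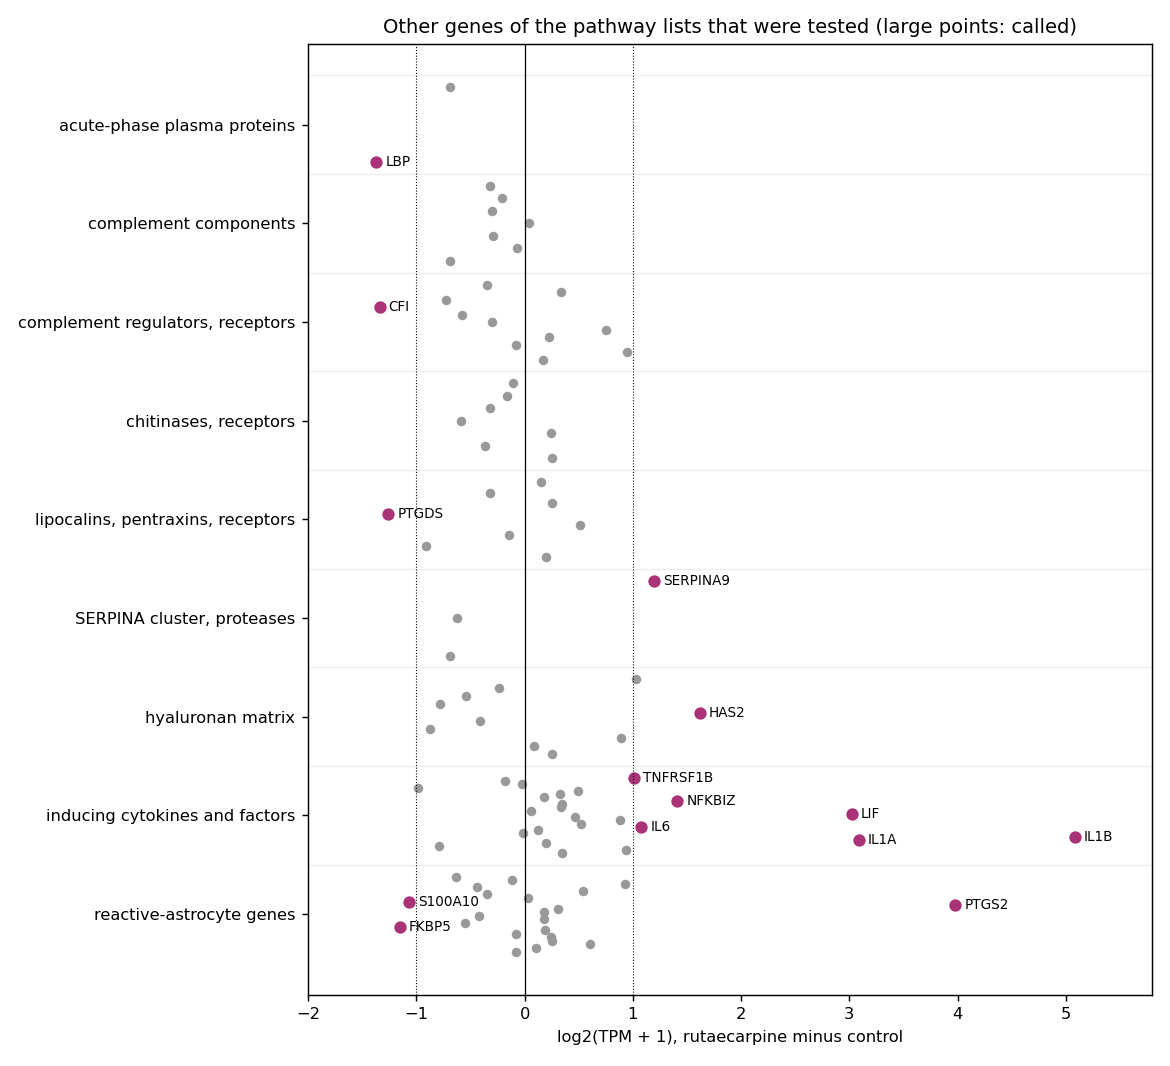
Log2 fold change on the log2(TPM + 1) scale, rutaecarpine minus control, for the tested genes of 9 lists outside the set of 9, one row per list and one point per gene. Large labelled points met both cutoffs, the dotted lines mark the fold cutoff of 1, and most of the large points on the right belong to the inducing cytokines and factors, with IL1B at 5.08.

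The largest fold change on the lists examined was that of IL1B, among the genes that induce the acute phase. Of 27 cytokines, receptors and transcription factors of this kind, 24 were tested, 6 changed, all of them higher, and 0 changed to lower levels by limma, where 2.01% and 1.50% of all genes changed in these directions. With the libraries centred, 4 were called higher and 1 (SOCS3) lower. The median log2 fold change of the list was 0.35, beside 0.08 for all genes tested. In the list, 11 of the 24 genes had an adjusted p under the threshold, where 9.29% of all genes tested did. CEBPD and SOCS3, both lower, were among these 11. This list, like the others, was chosen with earlier results of these data known. Its counts are therefore a description, and no support is read from them.

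IL1B, the cytokine IL-1beta, rose from 203.9, 212.6 and 173.0 TPM to 6308, 6786 and 6914 TPM, 33.9-fold (log2 fold change 5.08, adjusted p = 3e-06 by limma with Benjamini-Hochberg adjustment). IL1A rose from 5.47, 4.31 and 3.23 TPM to 41.3, 42.4 and 47.4 TPM. LIF, a cytokine of the IL-6 family, rose from 135.5, 124.4 and 73.8 TPM to 893.9, 752.5 and 1021 TPM. These 3 cytokines met the cutoffs in all 12 alternatives. IL6 had 617.7 to 654.2 TPM in the control group and rose to between 1191 and 1419 TPM. Its log2 fold change was 1.08, and 0.99, under the cutoff, with the libraries centred. OSM and TNF were at 1.38 TPM or lower and not tested.

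TNFRSF1B, a receptor for TNF, had 26.1 to 28.7 TPM in the control group and rose to between 53.9 and 58.4 TPM. Its log2 fold change was 1.01, and under the cutoff at 0.92 with the libraries centred, 0.97 without control replicate 3 and 0.99 without rutaecarpine replicate 1 or 3. NFKBIZ, a co-activator of NF-kappaB that LCN2 is known to need, rose from 53.8, 55.7 and 26.9 TPM to 107.7, 105.9 and 139.0 TPM (log2 fold change 1.41, adjusted p = 0.0237 by limma with Benjamini-Hochberg adjustment). Its call was lost without any of the rutaecarpine replicates, at adjusted p values of 0.0793 to 0.106, and with no filter on low TPM, at 0.0733. CEBPB had 101.0 to 125.0 TPM in the control group and 198.4 to 234.7 TPM after rutaecarpine, at a log2 fold change of 0.94, and 1.04 without control replicate 3. CEBPD had 69.9 to 81.2 TPM in the control group and 40.1 to 49.5 TPM after rutaecarpine, at -0.79. SOCS3, a target and brake of STAT3, had 39.1 to 42.7 TPM in the control group and 18.8 to 20.9 TPM after rutaecarpine, at -0.98. It met both cutoffs, at a lower level, in 5 of the 12 alternatives, among them centring (-1.08). STAT3 itself had a log2 fold change of -0.02.

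Side by side, IL1B, IL1A, LIF and IL6 were higher in each rutaecarpine library. Of the acute-phase and complement genes above, CHI3L2, CFB, PTX3, SAA1, C3 and LBP were lower in each of them. So were SERPINA1, C1R, C4A, CFI, CLU and CD59. TNFAIP6, CD55 and C5AR1 were higher in each rutaecarpine library, and CHI3L1 and LCN2 overlapped between the groups. The comparisons share the same 6 libraries, and whether the levels of the cytokines bear on those of the secreted proteins was not tested.

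**Figure D4:**
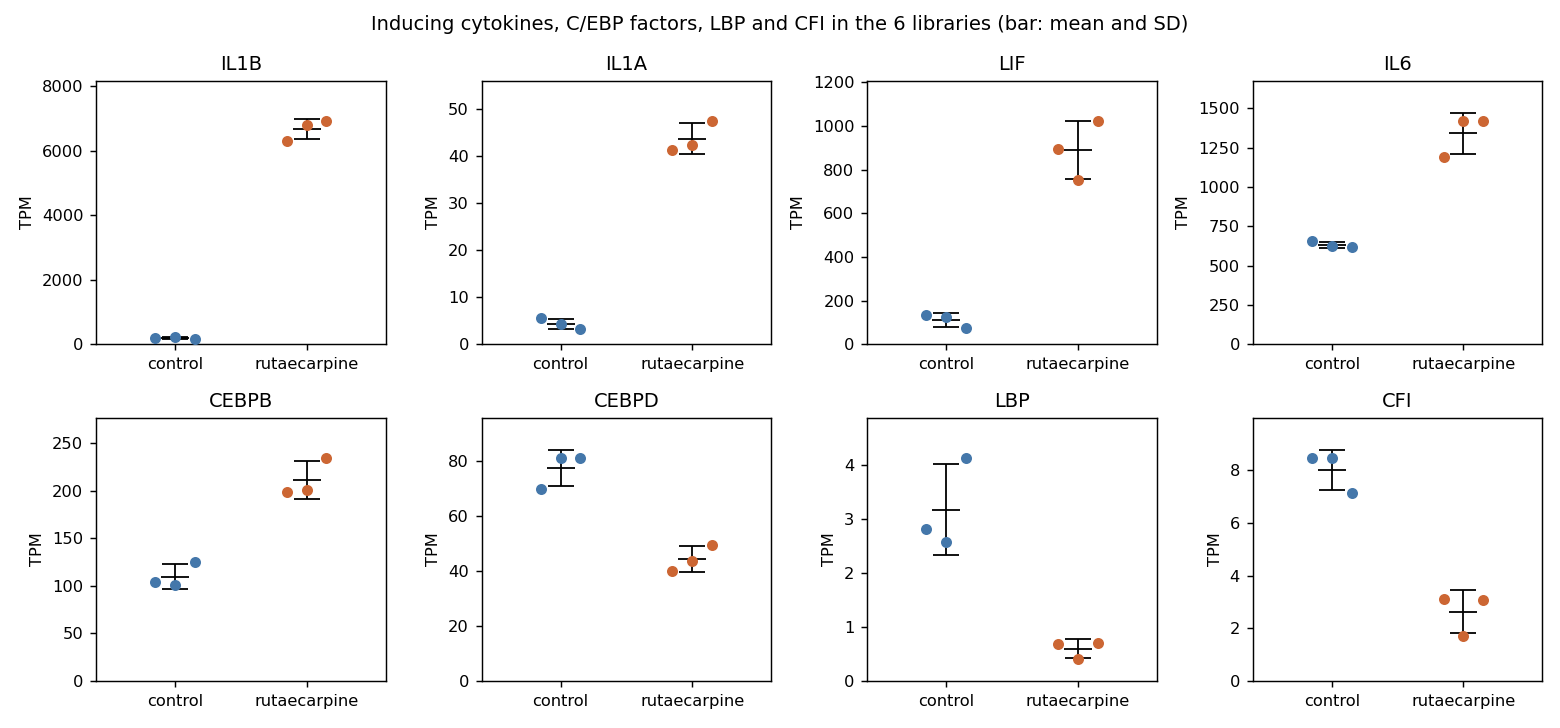
TPM in each library for IL1B, IL1A, LIF, IL6, CEBPB, CEBPD, LBP and CFI, one panel per gene with its own axis from 0, with points for the 3 control and 3 rutaecarpine libraries and bars for the mean and SD. The 4 cytokines and CEBPB lie higher after rutaecarpine, with IL1B going from at most 212.6 to at least 6308 TPM, and CEBPD, LBP and CFI lie lower.

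Of 29 genes of reactive astrocytes, 22 were tested, 1 rose and 2 fell, where 2.01% and 1.50% of all genes did. The median log2 fold change was 0.07. Of the 22, 7 had an adjusted p under the threshold, where 9.29% of all genes tested did. These were PTGS2, TIMP1 and SPHK1, which were higher, and VIM, SRGN, S100A10 and FKBP5, which were lower. PTGS2, the inducible cyclooxygenase, rose from 64.7, 60.7 and 30.6 TPM to 785.3, 690.5 and 933.5 TPM (log2 fold change 3.98, adjusted p = 0.000515 by limma with Benjamini-Hochberg adjustment). S100A10 fell from 2507 ± 232.0 to 1189 ± 83.3 TPM (SD, n = 3), with a log2 fold change of -1.07. FKBP5, a chaperone induced by glucocorticoids, fell from 3.84, 4.34 and 1.86 TPM to 1.04, 0.85 and 0.81 TPM, with an adjusted p of 0.0397 that was 0.117 to 0.152 when any library but control replicate 3 was left out and 0.124 with no filter on low TPM. TIMP1, which encodes an inhibitor of metalloproteinases, had 2394 to 2958 TPM in the control group and 4494 to 5565 TPM after rutaecarpine, at a log2 fold change of 0.93 that was 1.03 without control replicate 3. VIM had one of -0.63 and GFAP one of 0.18 with overlapping groups.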

How the data were processed

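RNA-Seq libraries of U87 cells treated with 100 μM rutaecarpine or with 0.1% DMSO for 48 h (3 per group) were compared. Groups and replicate numbers were read from the sample labels. The authors quantified genes with RSEM on GRCh38.p13, and the deposited values are TPM, 1 column per library; 0 columns were left unmatched. RSEM divides reads that match several genes, so near-identical or overlapping genes are uncertain. The submitters' notes also name DESeq2 and edgeR, which need counts and were not used here. The TPM of a library summed to 990889 to 995734. Of the 60671 genes, 35671 carried no name, and 35432 of these were named by identifier. The 9 genes and all gene lists were chosen with earlier results of these data known.

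On the log2(TPM + 1) scale, the 14377 genes that reached a TPM of 1 in 3 or more libraries were compared with limma 3.58.1 in R 4.3.3 (empirical Bayes with a trend, two-sided) and Benjamini-Hochberg adjustment over all of them, with no covariate. The script was run on simulated data with independent noise, whose spread was taken without control replicate 3. That run therefore does not cover a library that stands apart. The smallest exact permutation p that 3 against 3 libraries allow is 0.1, and limma goes below it by pooling the spread over genes. Positions came from GENCODE release 29. Named were all 9 genes, the changed genes of the lists, up to 4 most abundant genes per list, defining genes at or near 0, changed neighbours and the 5 genes of most similar profile; C5AR1, CEBPD, SOCS3, STAT3, IL13RA2, FPR1, TIMP1 and the other list genes given were named after their values were seen. The alternatives were centring on library medians, no trend, other filters on low TPM, a pseudocount of 0.1, the replicate number as a block, and each library left out. Python 3.11.15, numpy 2.4.6, pandas 2.3.3 and matplotlib 3.10.9 were used for tables and plots.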

Additional observations from a re-analysis of the deposited data

How the results depend on the processing

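No result changed its direction among the called values under any alternative. The number of genes called, 505, was 318 with the replicate block and 353 to 610 when 1 library was left out, with 610 without control replicate 3. Replicate numbers did not pair the libraries: deviations of the same-numbered libraries from their group means correlated at 0.116, -0.266 and -0.215 over genes, and control replicate 3 correlated best with rutaecarpine replicate 2 (0.387). In the replicate block, CFI, FKBP5 and NFKBIZ lost their calls. The called count went from 1 to 0 for the other acute-phase proteins, for the SERPINA cluster list and for the neighbours when every library had to reach a TPM of 1, where LBP, SERPINA9 and TNFSF14 are no longer tested. For the complement regulators it went from 1 to 2 with a pseudocount of 0.1, 0 with the replicate block, and 0 to 2 with 1 library left out. For the hyaluronan genes it was 3 with a pseudocount of 0.1 and 0 to 2 with 1 library left out. For the lipocalin and pentraxin list it was 2 with centring and 1 to 2 with 1 library left out, and for the glioma markers it was 1 (OLIG2) in place of 0 with a pseudocount of 0.1. The median log2 fold change of the members was -0.15, in place of -0.42, when no filter was used and SERPINA3 entered. Depth is unknown in TPM, so for SAA1, LCN2 and SERPINA3 the error of counting could not be separated from the spread between libraries.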
